A study of Homo sapiens with 22 samples.

Results

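The 10 genes described here lie at the entry and exit of the integrated stress response and were followed in acute myeloid leukemia (AML) cells treated with FP54, a degrader of the m6A demethylase FTO. They were chosen by name for their role, with earlier results of these data known, and comprised the 4 eIF2 kinases EIF2AK1, EIF2AK2, EIF2AK3 and EIF2AK4, GCN1 and IMPACT, which regulate EIF2AK4, the phosphatase subunits PPP1R15A and PPP1R15B, and the mitochondrial relay genes OMA1 and DELE1. All 10 of the 20411 genes in each expression table were found and all passed the filter on low values in both cell lines. MOLM-13, an AML line of monocytic character, and NB4, an acute promyelocytic leukemia line, both labelled wild type, were exposed to 2 μM FP54 or to the solvent DMSO for 48 hours, and polyadenylated RNA was sequenced from 3 libraries per treatment and line. The labels list 22 samples, of which these 12 are described and the remaining 10 (m6A-seq or polysome-seq) are not analysed here. The labels name replicates but not separate cultures, so p-values measure the spread between these libraries, which may be technical. Each line is a single line, and one dose and one time point were sampled.

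The integrated stress response lowers general protein synthesis through phosphorylation of the translation factor eIF2 on its alpha subunit. Separate kinases carry this out, each activated by a different stress, namely EIF2AK1 (HRI) by heme shortage and by mitochondrial signals, EIF2AK2 (PKR) by double-stranded RNA, EIF2AK3 (PERK) by unfolded proteins in the endoplasmic reticulum and EIF2AK4 (GCN2) by amino acid shortage and stalled ribosomes. Phosphorylated eIF2 favors translation of ATF4, whose target genes form the output of the response, and protein phosphatase 1 removes the phosphate when bound by PPP1R15A (GADD34), which is induced by stress, or by PPP1R15B (CReP), which is made constitutively. The mRNA levels described here do not measure kinase activity or eIF2 phosphorylation.

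The libraries held 16304945 to 17353168 reads on genes with DMSO and 5833915 to 19197856 with FP54 in MOLM-13 cells, and 20659811 to 22346748 and 10599550 to 13075834 in NB4 cells, with FP54 replicate 2 of MOLM-13 the shallowest. The 10 genes had between 135 reads (OMA1 in that library) and 13091 reads. The tested myeloid markers (PTPRC, CD33, SPI1, MPO, CD68, LYZ, CSF3R and ITGAM) summed to 943 to 978 RPKM with DMSO and 1266 to 1425 RPKM with FP54 in MOLM-13 cells, and to 2185 to 2432 RPKM and 1237 to 1302 RPKM in NB4 cells. The members of this sum did not move alike. MPO was at 16.1 and 3.79 RPKM with DMSO and FP54 in MOLM-13 cells, where CD68 was at 192 and 418 and LYZ at 489 and 602 RPKM, and MPO was at 2170 and 1116 RPKM in NB4 cells, where ITGAM was at 3.64 and 14.3 and CD68 at 9.44 and 18.8 RPKM. The part of these differences in the results was not tested. The 9 markers of other cell types summed to 4.85 to 9.30 RPKM in MOLM-13 and 19.2 to 23.3 RPKM in NB4 libraries, mostly from KRT18 (7.35 and 4.90 RPKM in MOLM-13, 11.5 and 11.7 RPKM in NB4 cells) and, in NB4 cells, EPCAM (8.15 and 9.71 RPKM), with PPBP at 0 in both lines and HBA1 at 0 in NB4 cells. FTO mRNA, which does not check the loss of the protein, was at 1.01 ± 0.0767 and 1.01 ± 0.118 RPKM (SD, n = 3) in MOLM-13 cells and at 2.73 ± 0.180 and 2.03 ± 0.0782 RPKM in NB4 cells. The mean level of 416 olfactory receptor genes, which leukemia cells are not known to use, was 0.00168 to 0.00372 RPKM in the NB4 libraries with DMSO and 0.0496 to 0.0549 RPKM in those with FP54, against 0.00386 to 0.00831 RPKM over all MOLM-13 libraries. In bulk RNA, fewer cells of a type and less RNA per cell cannot be told apart.

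Of the 10 genes, 5 passed the cutoff in 1 line and none in both. In NB4 cells, PPP1R15A, PPP1R15B and EIF2AK3 rose with FP54, and PPP1R15A reached 292% of its DMSO level. In MOLM-13 cells, GCN1 fell to 61.8% of its DMSO level and OMA1 rose to 151%. The cutoff was an unadjusted limma p below 0.01 and a change of 0.5 or more on the log2 scale, and log2 fold changes refer to log2(RPKM + 0.1). Of all tested genes, 9.04% were called lower and 9.3% higher in MOLM-13 cells, where 1 of the 10 was lower and 1 was higher. In NB4 cells 10.7% of all genes were called lower and 18.6% higher, where 0 of the 10 were lower and 3 were higher. At an unadjusted limma p below 0.05 with no minimum fold, EIF2AK1, EIF2AK4 and IMPACT were the 3 of the 10 that were lower in NB4 cells, against 24.7% of all genes, and limma-voom on reads recovered from the RPKM called 0 lower by the cutoff. At an adjusted p below 0.05 with no minimum fold, 2 of the 10 passed in MOLM-13 cells, against 19.2% of all genes, and 6 of the 10 did so in NB4 cells, against 51.8% of all genes. The libraries of the 2 treatments were fully separated for 4 of the 10 in MOLM-13 cells, as they were for 37.1% of all genes, and for 8 of the 10 in NB4 cells, as for 60.5% of all genes. The median log2 fold change of the 10 was -0.10 in MOLM-13 and 0.28 in NB4 cells, against 0.0033 and 0.07 over all tested genes. Median-ratio scaling drew on all genes with reads in every library of a line, also those under the filter. It moved the median of the tested genes by -0.20 in NB4 cells, to -0.13, so past 0 and not onto it. In MOLM-13 cells it moved that median by -0.02, to -0.02. With this scaling 1 of the 10 (EIF2AK1) was lower and 1 (PPP1R15A) was higher in NB4 cells.

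**Figure D1:**
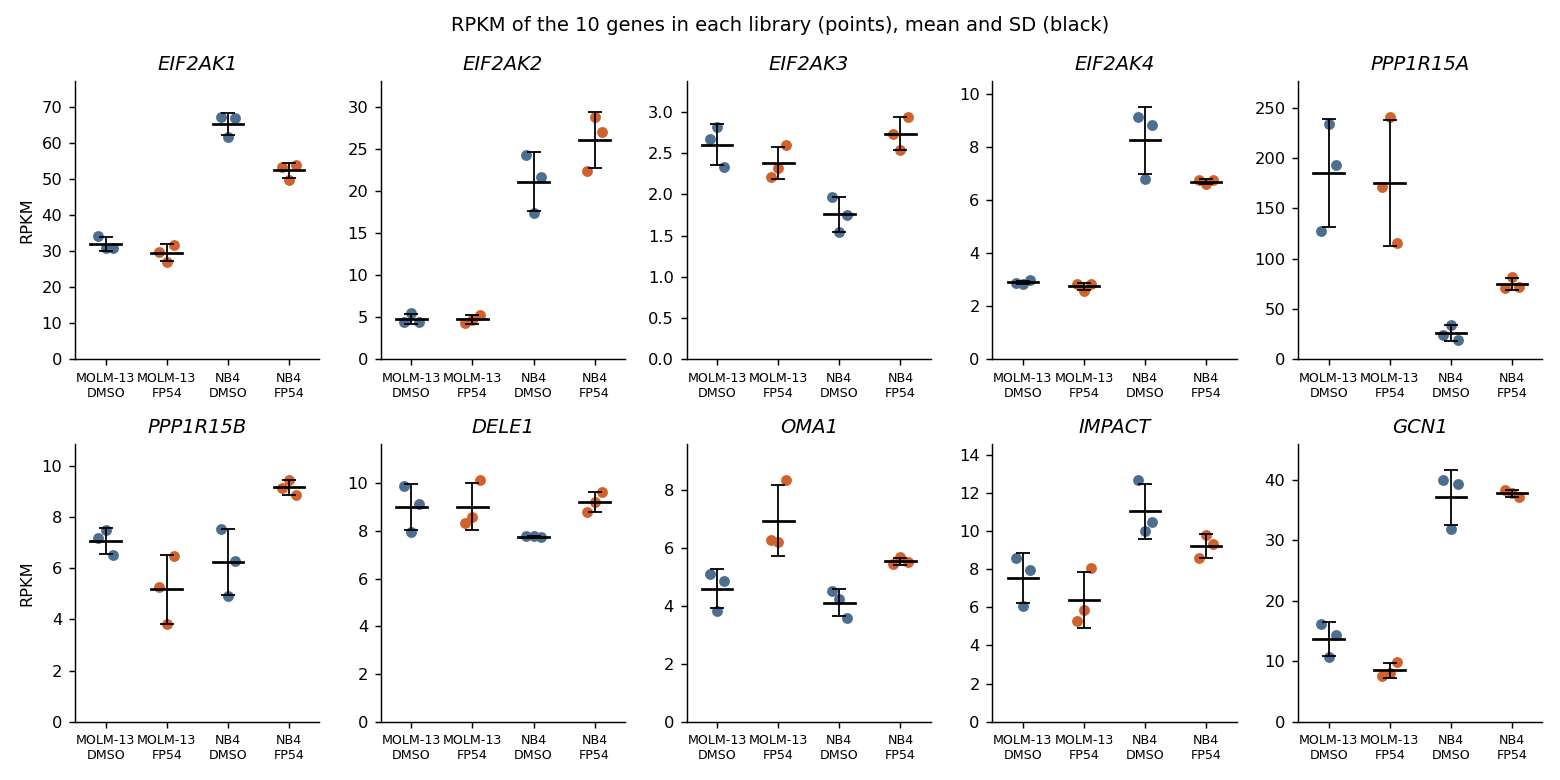
RPKM (y axes, each from 0) of the 10 genes in each of the 12 libraries (points), with the mean and SD of 3 libraries (black), for MOLM-13 and NB4 cells with DMSO or FP54 (x axes). PPP1R15A was at 18.8 to 34.3 RPKM with DMSO and 70.6 to 81.2 RPKM with FP54 in NB4 cells, while in MOLM-13 cells both treatments spanned overlapping ranges.

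Without FP54 the lines differed in how much of each transcript they held. The 2 tables were normalized separately, so these levels are set side by side with no test. RPKM divides reads by gene length, so an order between genes depends on the lengths used. The annotated exon lengths that gave whole reads were 5492 bases for EIF2AK1, 11036 for EIF2AK2, 20691 for EIF2AK3 and 11988 for EIF2AK4. In MOLM-13 cells with DMSO the order by mean RPKM began with PPP1R15A (185), EIF2AK1 (31.9), GCN1 (13.7), DELE1 (8.99) and IMPACT (7.54). It went on with PPP1R15B (7.07), EIF2AK2 (4.75), OMA1 (4.60), EIF2AK4 (2.89) and EIF2AK3 (2.61). The libraries of DELE1 and IMPACT, of IMPACT and PPP1R15B, and of EIF2AK2 and OMA1 overlapped in this order. In NB4 cells it was EIF2AK1 (65.3), GCN1 (37.1), PPP1R15A (25.5), EIF2AK2 (21.1), IMPACT (11.03), EIF2AK4 (8.25), DELE1 (7.76), PPP1R15B (6.25), OMA1 (4.11) and EIF2AK3 (1.76), with overlaps between GCN1 and PPP1R15A, PPP1R15A and EIF2AK2, and EIF2AK4 and DELE1. PPP1R15A thus stood at a 7.24-fold higher DMSO level in MOLM-13 than in NB4 cells, and even with FP54 the NB4 libraries stayed below the lowest MOLM-13 library, at 116 RPKM. EIF2AK2 (4.43-fold), EIF2AK4 (2.86-fold), GCN1 (2.702-fold) and EIF2AK1 (2.05-fold) were at higher DMSO levels in NB4 cells.

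EIF2AK1, the heme-regulated kinase that also receives the mitochondrial signal, had the highest RPKM of the kinases in each of the 12 libraries. Its recovered reads, not scaled by length, were below those of EIF2AK2 in NB4 FP54 replicates 2 (3189 against 3689) and 3 (3873 against 3888). Its levels in MOLM-13 cells were 34.2, 30.8 and 30.7 RPKM with DMSO and 29.9, 27.0 and 31.7 RPKM with FP54, which overlapped (log2 fold change -0.11, standard error 0.13, limma adjusted p = 0.576). In NB4 cells they were 67.2, 61.7 and 67.0 RPKM with DMSO and 53.4, 49.9 and 54.0 RPKM with FP54. Here all 3 FP54 libraries lay below all 3 DMSO libraries, at -0.32 on the log2 scale (standard error 0.08, adjusted p = 0.00696), which did not reach the minimum fold. Under median-ratio scaling it was -0.52 and passed, and after quantile normalization it was -0.17 (adjusted p = 0.111). EIF2AK1 lies on chromosome 7 from 6022247 to 6059175 (hg38, minus strand), and 532 of its exonic bases overlap AIMP2 on the other strand.

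EIF2AK2, the kinase of double-stranded RNA, is itself an interferon-stimulated gene. In MOLM-13 cells it was at 4.42, 5.43 and 4.40 RPKM with DMSO and 4.25, 4.62 and 5.24 RPKM with FP54. In NB4 cells EIF2AK2 was at 24.2, 17.3 and 21.7 RPKM with DMSO and 22.4, 28.7 and 27.0 RPKM with FP54. The treatments overlapped in both lines, with log2 fold changes of -0.01 (standard error 0.16, adjusted p = 0.964) and 0.31 (standard error 0.13, adjusted p = 0.0743). The NB4 value was 0.11 (adjusted p = 0.458) under median-ratio scaling and 0.36 (adjusted p = 0.0287) after quantile normalization.

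EIF2AK3, the endoplasmic reticulum kinase, was the kinase that passed in NB4 cells. It was at 1.97, 1.55 and 1.75 RPKM with DMSO and 2.73, 2.54 and 2.94 RPKM with FP54 in this line, so that each FP54 library was above each DMSO library. The log2 fold change was 0.62 (standard error 0.13, 95% interval 0.33 to 0.90, adjusted p = 0.00254), at the 682 to 843 reads of the DMSO libraries. With a pseudocount of 1 it was 0.44, under median-ratio scaling 0.43 and after quantile normalization 0.28 (adjusted p = 0.0658), each short of the cutoff, and it was 0.59 after subtraction of the olfactory receptor level. In MOLM-13 cells the levels were 2.67, 2.81 and 2.33 RPKM with DMSO and 2.22, 2.32 and 2.60 RPKM with FP54. These overlapped, and FP54 differed from DMSO by -0.13 on the log2 scale (standard error 0.17, adjusted p = 0.639). The gene lies on chromosome 2 from 88556741 to 88691518 (hg38, minus strand), and 781 exonic bases overlap a noncoding gene on the other strand.

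EIF2AK4, the amino acid sensor, did not pass the cutoff in either line. In MOLM-13 cells it was at 2.87, 2.83 and 2.97 RPKM with DMSO and 2.83, 2.58 and 2.82 RPKM with FP54, where the groups were separated only by the decimals not shown (log2 fold change -0.08, adjusted p = 0.768). The NB4 libraries were at 9.12, 6.81 and 8.83 RPKM with DMSO and 6.74, 6.59 and 6.74 RPKM with FP54. The NB4 groups did not overlap either, by -0.29 on the log2 scale (standard error 0.12, adjusted p = 0.0642), which became -0.48 (adjusted p = 0.00282) under median-ratio scaling and -0.41 (adjusted p = 0.00679) after quantile normalization.

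The make-up of the summed kinase RPKM differed between the lines, and the size of each share depends on the gene lengths given above. EIF2AK1 held 75.7% ± 1.98 of the summed kinase RPKM in MOLM-13 cells with DMSO and 75.0% ± 1.14 with FP54 (SD, n = 3), and EIF2AK2 held 11.3% ± 1.52 and 11.95% ± 0.951. In NB4 cells the share of EIF2AK1 was 67.9% ± 2.55 with DMSO and 59.7% ± 2.90 with FP54, and the libraries did not overlap. The share of EIF2AK2 was 21.7% ± 1.90 and 29.6% ± 3.26 there, and that of EIF2AK3 was 1.82% ± 0.0913 and 3.11% ± 0.189. Since 3 against 3 libraries leave 0.1 as the smallest p of an exact two-sided permutation test, these shares are given as values. The summed kinase level itself was 96.4 ± 7.98 RPKM and 87.9 ± 2.65 RPKM in NB4 cells, with overlapping libraries.

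**Figure D2:**
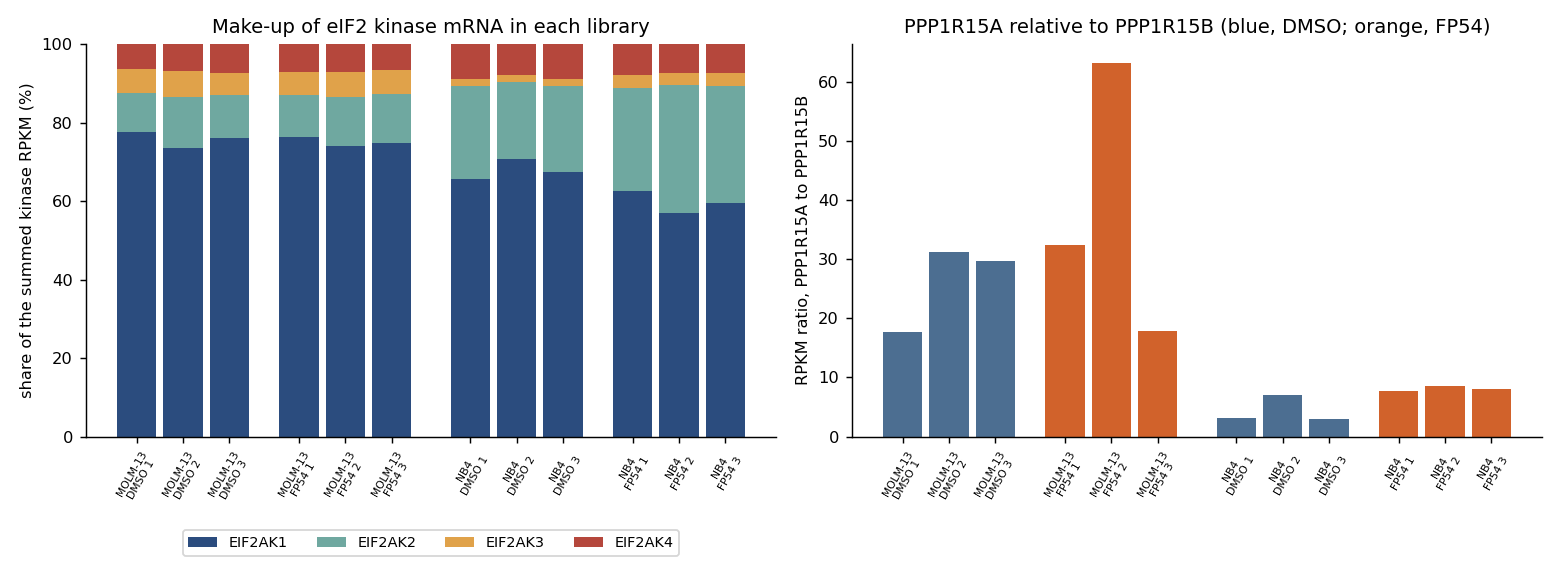
Left, share of the summed RPKM of the 4 eIF2 kinases (y axis, %) in each of the 12 libraries (x axis), stacked by gene. Right, ratio of PPP1R15A to PPP1R15B RPKM (y axis) in the same libraries, blue for DMSO and orange for FP54, which ran from 17.7 to 63.3 in MOLM-13 and from 2.98 to 8.59 in NB4 cells.

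GCN1, the ribosome-bound protein that GCN2 needs for its activation, was the gene of the 10 that fell in MOLM-13 cells. It was at 16.2, 10.7 and 14.3 RPKM with DMSO and 7.51, 8.08 and 9.86 RPKM with FP54. The FP54 libraries lay below all DMSO libraries, though DMSO replicate 2 was close to FP54 replicate 3. The log2 fold change was -0.68 (standard error 0.18, 95% interval -1.08 to -0.27, unadjusted p = 0.00417, adjusted p = 0.0311). It did not pass the cutoff without DMSO replicate 1 (-0.55), DMSO replicate 3 (-0.63), FP54 replicate 1 (-0.59) or FP54 replicate 2 (-0.64), nor without the filter on low values. In NB4 cells GCN1 was at 40.0, 31.9 and 39.3 RPKM with DMSO and 38.4, 37.8 and 37.1 RPKM with FP54. These overlapped, and the log2 fold change was 0.03 (standard error 0.10, 95% interval -0.18 to 0.25, adjusted p = 0.790), which was -0.16 under median-ratio scaling. GCN1 lies on chromosome 12 from 120127202 to 120194715 (hg38, minus strand) in 56 exon blocks.

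IMPACT competes with GCN2 for GCN1 and so restrains the kinase. In MOLM-13 cells it was at 8.59, 6.05 and 7.96 RPKM with DMSO and 5.27, 5.85 and 8.05 RPKM with FP54, and in NB4 cells at 12.7, 9.98 and 10.5 RPKM with DMSO and 8.56, 9.78 and 9.31 RPKM with FP54. The MOLM-13 groups overlapped and the NB4 groups did not, and neither difference passed (log2 fold changes -0.24, adjusted p = 0.413, and -0.25, adjusted p = 0.0781). The NB4 value of IMPACT was -0.45 (adjusted p = 0.00249) under median-ratio scaling and -0.31 (adjusted p = 0.0207) after quantile normalization, both under the minimum fold. The ratio of GCN1 to IMPACT RPKM was 1.81 ± 0.0645 with DMSO and 1.34 ± 0.105 with FP54 in MOLM-13 cells, and 3.37 ± 0.339 and 4.11 ± 0.329 in NB4 cells (SD, n = 3). The libraries with DMSO and FP54 did not overlap in either line, and the ratio moved down in MOLM-13 and up in NB4 cells. The gap was narrow in NB4 cells, with the highest DMSO ratio at 3.76 and the lowest FP54 ratio at 3.86. How often ratios of other genes separate was not computed.

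PPP1R15A, the stress-induced subunit that brings phosphatase 1 to eIF2, had the largest change of the 10. In NB4 cells it was at 23.5, 34.3 and 18.8 RPKM with DMSO and 70.6, 81.2 and 71.5 RPKM with FP54. The lowest FP54 library was far above the highest DMSO library, and the log2 fold change was 1.58 (standard error 0.18, 95% interval 1.19 to 1.98, adjusted p = 4.64e-05). It passed under each of 17 alternatives, between 1.38 and 1.82. In MOLM-13 cells it was at 127, 234 and 193 RPKM with DMSO and 171, 241 and 116 RPKM with FP54. Both groups spanned nearly the same range, and the log2 fold change was -0.09 (standard error 0.28, 95% interval -0.71 to 0.52, adjusted p = 0.841), which turned to 0.10 if DMSO replicate 2 was left out and to 0.18 if FP54 replicate 3 was. The width of this interval leaves changes of either direction within the error. PPP1R15A lies on chromosome 19 from 48872212 to 48876059 (hg38, plus strand), with no annotated gene overlapping it.

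PPP1R15B, the constitutive partner of the same phosphatase, also rose in NB4 cells. It was at 7.52, 4.93 and 6.30 RPKM with DMSO and 9.16, 9.45 and 8.88 RPKM with FP54, with all FP54 libraries above the DMSO libraries. The log2 fold change was 0.57 (standard error 0.14, 95% interval 0.26 to 0.87, adjusted p = 0.00623). It did not reach the minimum fold without DMSO replicate 2 (0.41), under median-ratio scaling (0.37) and after quantile normalization (0.45), or the p cutoff with no filter on low values. In MOLM-13 cells it was at 7.19, 7.49 and 6.52 RPKM with DMSO and 5.26, 3.80 and 6.49 RPKM with FP54. FP54 replicate 2, the shallowest library, was the lowest with 207 reads, and FP54 replicate 3 was just under the DMSO libraries. On the log2 scale the difference of -0.47 (standard error 0.20, 95% interval -0.91 to -0.03, unadjusted p = 0.0381, adjusted p = 0.119) did not pass, and without FP54 replicate 3 it was -0.64 and did. PPP1R15B lies on chromosome 1 from 204396492 to 204411887 (hg38, minus strand), and 523 exonic bases overlap a noncoding gene on the other strand.

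The ratio of PPP1R15A to PPP1R15B showed how unlike the lines were in this pair. It was 17.7, 31.2 and 29.6 in MOLM-13 cells with DMSO and 32.5, 63.3 and 17.8 with FP54, and 3.12, 6.96 and 2.98 in NB4 cells with DMSO and 7.71, 8.59 and 8.06 with FP54. Even the lowest MOLM-13 ratio exceeded the highest NB4 ratio.

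The promoters of the 3 genes that rose in NB4 cells are shown because all 3 had a higher FP54 effect in that line than in MOLM-13 cells. Each sequence is the RefSeq promoter (GRCh38.p14) from 250 bases before to 50 bases from the annotated start, on the strand of the gene, with matches to 3 of the 5 searched motifs in capitals. RefSeq promoters were matched for 9 of the 10 genes. The PPP1R15A promoter is chr19:48872171-48872470 (plus strand), that of PPP1R15B is chr1:204411768-204412067 (minus strand) and that of EIF2AK3 is chr2:88627415-88627714 (minus strand). The RefSeq start of EIF2AK3 lies well inside the gene span given above, whose upstream end is at 88691518, so the annotations place the start differently.
PPP1R15A: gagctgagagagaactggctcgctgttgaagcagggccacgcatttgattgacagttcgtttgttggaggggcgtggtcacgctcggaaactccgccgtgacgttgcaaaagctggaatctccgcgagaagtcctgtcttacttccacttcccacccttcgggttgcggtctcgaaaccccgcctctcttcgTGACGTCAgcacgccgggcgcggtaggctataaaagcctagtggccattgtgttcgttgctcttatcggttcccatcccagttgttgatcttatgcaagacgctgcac
PPP1R15B: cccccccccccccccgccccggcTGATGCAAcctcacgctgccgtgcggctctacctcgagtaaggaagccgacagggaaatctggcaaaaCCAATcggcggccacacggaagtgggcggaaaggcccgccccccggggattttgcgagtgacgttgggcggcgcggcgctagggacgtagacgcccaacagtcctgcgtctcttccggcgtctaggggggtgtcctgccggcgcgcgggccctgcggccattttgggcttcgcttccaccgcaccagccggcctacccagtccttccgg
EIF2AK3: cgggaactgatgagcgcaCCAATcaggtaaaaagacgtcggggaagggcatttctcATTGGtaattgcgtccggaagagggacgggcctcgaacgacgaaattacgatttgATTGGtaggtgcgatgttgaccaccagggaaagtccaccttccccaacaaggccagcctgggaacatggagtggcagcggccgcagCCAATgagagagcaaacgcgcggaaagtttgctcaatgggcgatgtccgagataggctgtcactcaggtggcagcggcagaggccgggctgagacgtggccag
The motifs were searched on both strands. TGACGTCA, the cAMP response element, occurred at -58 to -51 of PPP1R15A and in 1.85% of 35116 promoters. TGATGNAA, the composite site of ATF4 and C/EBP proteins, occurred at -227 to -220 of PPP1R15B and in 3.62% of promoters. CCAAT occurred once in PPP1R15B and 4 times in EIF2AK3, as ATTGG where it lies on the other strand, and in 34.6% of promoters. Neither CACGTG (7.26% of promoters) nor GAAANNGAA, the core of the interferon response element (8.11%), occurred in these 3, while EIF2AK2 held both, the latter as GAAAACGAA at -6 to 3. A match is a description of letters in a window and not a binding site, and TGACGTCA and TGATGNAA do not share positions in any of the 3.

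OMA1, the inner-membrane protease that cuts DELE1 when mitochondria are stressed, was the gene of the 10 that rose in MOLM-13 cells. It was at 5.11, 3.84 and 4.85 RPKM with DMSO and 6.29, 6.23 and 8.36 RPKM with FP54, and every FP54 library was above every DMSO library. The log2 fold change was 0.58 (standard error 0.18, 95% interval 0.18 to 0.98, unadjusted p = 0.00848, adjusted p = 0.0468). The call was near the cutoff and was lost without DMSO replicate 1 (0.66), DMSO replicate 2 (0.46), DMSO replicate 3 (0.63), FP54 replicate 1 (0.65) or FP54 replicate 3 (0.45), with no filter and with a filter at a mean RPKM of 5. In NB4 cells OMA1 was at 4.51, 4.23 and 3.60 RPKM with DMSO and 5.46, 5.69 and 5.51 RPKM with FP54. These did not overlap either, and the difference of 0.43 on the log2 scale (standard error 0.11, 95% interval 0.19 to 0.67, adjusted p = 0.00774) did not reach the minimum fold. It was 0.24 (adjusted p = 0.0757) under median-ratio scaling and 0.25 (adjusted p = 0.0555) after quantile normalization. Every FP54 library thus exceeded every DMSO library for OMA1 in each line. Full separation of the treatments, whichever way, was common, as 37.1% of the tested genes showed it for MOLM-13 and 60.5% for NB4. OMA1 lies on chromosome 1 from 58415384 to 58546802 (hg38, minus strand). On the same strand, 257 of its exonic bases are shared with DAB1, so that its level is uncertain to that extent.

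DELE1, whose cut form leaves the mitochondria and binds EIF2AK1, was at 9.89, 7.96 and 9.12 RPKM with DMSO and 8.35, 8.58 and 10.1 RPKM with FP54 in MOLM-13 cells. The groups overlapped, and differed by 0.0049 on the log2 scale (standard error 0.15, adjusted p = 0.986). The levels in NB4 cells were 7.77, 7.77 and 7.74 RPKM with DMSO and 8.78, 9.21 and 9.63 RPKM with FP54. The groups were separate, and the difference of 0.24 on the log2 scale (standard error 0.09, adjusted p = 0.0391) stayed under the minimum fold. It was 0.0452 (adjusted p = 0.693) under median-ratio scaling and 0.14 (adjusted p = 0.201) after quantile normalization. The ratio of DELE1 to OMA1 RPKM was 1.96 ± 0.0974 with DMSO and 1.30 ± 0.0850 with FP54 in MOLM-13 cells, without overlap, and 1.90 ± 0.221 and 1.66 ± 0.0763 in NB4 cells, where the libraries overlapped.

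The difference in the FP54 effect between the lines was tested by the interaction term of a limma fit to all 12 libraries and 8849 genes, of which 14.2% differed at an adjusted p below 0.05. Of the 10 genes, 4 differed, and all 4 had the higher effect in NB4 cells. PPP1R15A differed by 1.68 on the log2 scale (standard error 0.38, 95% interval 0.87 to 2.48, adjusted p = 0.00831). PPP1R15B followed at 1.03 (standard error 0.26, 95% interval 0.49 to 1.58, adjusted p = 0.0144), EIF2AK3 at 0.74 (standard error 0.20, 95% interval 0.32 to 1.16, adjusted p = 0.0212) and GCN1 at 0.71 (standard error 0.22, 95% interval 0.24 to 1.17, adjusted p = 0.0419). The median difference was 0.28 over the 10 and 0.08 over all genes. The result held under each of 23 alternatives for PPP1R15A and for PPP1R15B, while GCN1 missed the threshold in 13 of them, with adjusted p up to 0.10, and EIF2AK3 in 4, with adjusted p up to 0.196. OMA1 did not differ beyond its error, at -0.15 with an interval of -0.61 to 0.30 (adjusted p = 0.679), and the adjusted p of the other 5 was 0.339 to 0.985.

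**Figure D3:**
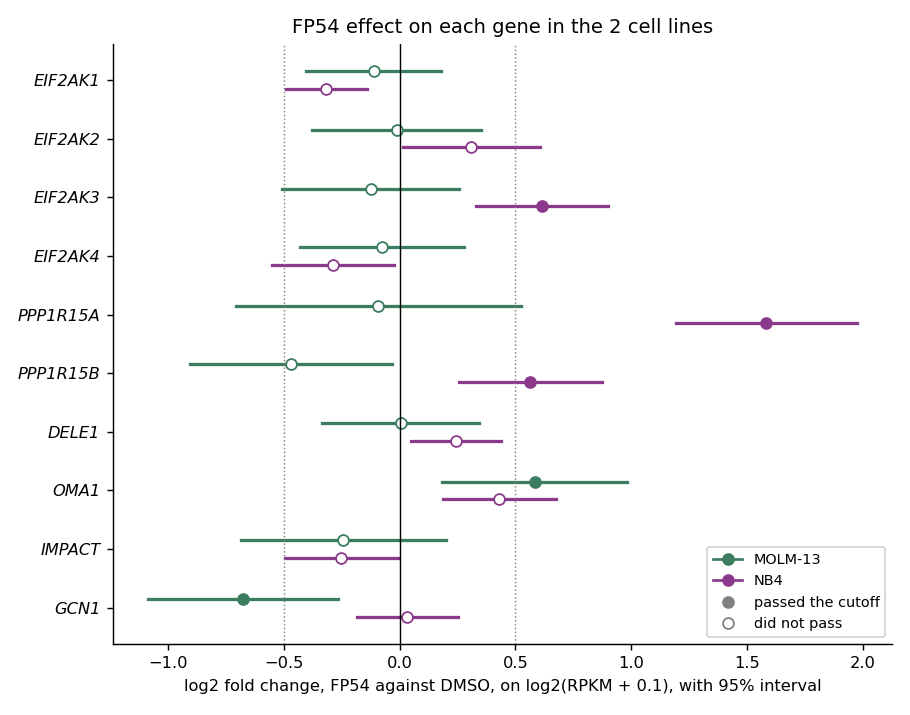
Log2 fold change of FP54 against DMSO on log2(RPKM + 0.1) (x axis) with its 95% interval for the 10 genes (y axis) in MOLM-13 (green) and NB4 (purple) cells, filled where the gene passed the cutoff. Dotted lines mark the minimum fold of 0.5, and the filled points are PPP1R15A, PPP1R15B and EIF2AK3 in NB4 and OMA1 and GCN1 in MOLM-13 cells.

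The same comparison was made for lists of genes around these 10, to be read against the 9.04% of all genes called lower and 9.3% called higher in MOLM-13 cells and the 10.7% and 18.6% in NB4 cells. Of 14 genes of eIF2, its exchange factor eIF2B and the catalytic subunits of phosphatase 1, 2 were called lower and 0 higher in MOLM-13 cells, and 3 lower and 0 higher in NB4 cells, with medians of -0.12 and -0.31. EIF2B3, a subunit of the exchange factor, fell in both lines, by 1.01 in MOLM-13 (adjusted p = 0.0281) and by 0.56 in NB4 cells (adjusted p = 0.00109) on the log2 scale. EIF2S2, the beta subunit of eIF2, fell from 159 ± 19.2 to 91.8 ± 15.9 RPKM (SD, n = 3) in MOLM-13 cells. In NB4 cells EIF2S2 had a log2 fold change of -0.35 (limma adjusted p = 0.0112), short of the minimum fold. EIF2S1, the alpha subunit that the kinases phosphorylate, fell from 31.2 ± 1.698 to 19.6 ± 0.818 RPKM in NB4 cells, and EIF2B5, the catalytic subunit of eIF2B, from 21.2 ± 2.20 to 13.8 ± 0.0936 RPKM. The log2 fold change of EIF2S1 was -0.67 there and -0.64 in MOLM-13 cells, where it did not pass (limma adjusted p = 0.0642). EIF2B5 did not pass in MOLM-13 cells either (-0.25, limma adjusted p = 0.361). Under median-ratio scaling, 7 of the 14 were lower in NB4 cells.

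Of 17 genes that bind or regulate the kinases, 2 were lower in MOLM-13 and 6 in NB4 cells, and 0 were higher in either, with medians of -0.09 and -0.03. Under median-ratio scaling the NB4 median was -0.23, with 14 of the 17 at negative values against 9. The chaperone HSP90AA1, which EIF2AK1 needs for its maturation, fell in both lines, with log2 fold changes of -0.85 (adjusted p = 0.0468) in MOLM-13 and -1.10 (adjusted p = 3.31e-06) in NB4 cells, and so did its partner HSP90AB1, with -0.85 and -0.79. DRG1, a GTPase linked to translation, fell from 52.8 ± 3.52 to 33.2 ± 1.51 RPKM in NB4 cells.

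Of 15 mitochondrial proteases, prohibitins and chaperones that work with or beside OMA1, 4 were lower in MOLM-13 and 5 in NB4 cells, and 0 were higher, with medians of -0.38 and -0.29. PHB1, a prohibitin of the inner membrane, fell by 0.74 in MOLM-13 (adjusted p = 0.0288) and by 1.21 in NB4 cells (adjusted p = 9.58e-06). The matrix chaperonin HSPD1 fell by 0.78 and the phosphatase PGAM5, a substrate of inner-membrane proteases, by 1.202 in MOLM-13 cells. Both were called lower in NB4 cells too, with log2 fold changes of -0.54 (limma adjusted p = 0.0013) and -0.56 (limma adjusted p = 0.000299). The cochaperonin HSPE1 fell by 0.94 and the rhomboid protease PARL by 0.76 in NB4 cells. In MOLM-13 cells neither passed, with HSPE1 at -1.02 (limma adjusted p = 0.120) and PARL at 0.37 (limma adjusted p = 0.127). LONP1, the matrix protease, was among those that fell in MOLM-13 cells, from 85.1 ± 9.72 to 54.4 ± 9.53 RPKM (log2 fold change -0.65, adjusted p = 0.0207). In NB4 cells it was at 49.9 ± 5.84 and 61.6 ± 3.93 RPKM (log2 fold change 0.31, adjusted p = 0.0228), under the minimum fold. The share of reads on 13 mitochondrially encoded genes was 1.22 to 1.700% with DMSO and 0.708 to 1.61% with FP54 in MOLM-13 cells, and 2.75 to 3.09% and 1.98 to 2.19% in NB4 cells.

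Of 15 sensors and targets of double-stranded RNA and interferon signaling, the filter left 6 to test in MOLM-13 cells, of which 5 were called higher, and 10 in NB4 cells, of which 8 were. A gene of low level can pass the filter through the libraries where it is high, so these counts describe the genes that could be tested. OAS1 and IFIT1 in MOLM-13 and DHX58 in NB4 cells had a DMSO mean under 1 RPKM and passed only through FP54. Without them, 3 of 4 were higher in MOLM-13 and 7 of 9 in NB4 cells, with medians of 0.63 and 0.93. OAS1, a synthetase activated by double-stranded RNA, rose from 0.623 ± 0.0723 to 1.73 ± 0.331 RPKM in MOLM-13 cells. IFIT1 rose by 0.88 on the log2 scale there (adjusted p = 0.0424). OAS3 rose from 2.32 ± 0.530 to 7.84 ± 1.21 RPKM in NB4 cells, OAS2 from 2.11 ± 0.496 to 4.56 ± 0.578 RPKM and the RNA helicase DHX58 from 0.761 ± 0.234 to 2.26 ± 0.462 RPKM. EIF2AK2, the member of the 10 that senses the same RNA, did not pass in either line, with the values given above.

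The counts of the 4 lists above rested on few libraries in MOLM-13 cells. Without DMSO replicate 3, the lower genes numbered 1 in the eIF2 list, 0 among the kinase regulators and 1 in the mitochondrial list, and 2 interferon genes were higher. Without FP54 replicate 1 these counts were 1, 0, 1 and 3, and without DMSO replicate 1 they were 1, 1, 2 and 3. Without DMSO replicate 2, 3 genes of the eIF2 list, 1 kinase regulator and 7 of the mitochondrial list were lower. The kinase regulators numbered 0 lower without FP54 replicate 3, and 2 of the mitochondrial list were lower without FP54 replicate 2. In NB4 cells the eIF2 list had 2 lower genes without DMSO replicate 3, and 2 to 3 with any 1 library left out.

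The output of the response moved in opposite directions. Of 39 ATF4-linked genes, 38 were tested in MOLM-13 cells, where 17 were lower and 1, NUPR1, was higher, with a median log2 fold change of -0.50. In NB4 cells 37 were tested, 0 were lower and 32 were higher, with a median of 1.45, which is the same with GDF15 at its lower bound. Of these 37, GDF15, INHBE, ADM2, CHAC1, STC2 and ALDH1L2 had a DMSO mean under 1 RPKM and passed the filter only through FP54. Among the other 31, 26 were higher and 0 lower, with a median of 0.96. Under median-ratio scaling, 19 of the 38 were lower in MOLM-13 cells. In NB4 cells 27 of the 37 were then higher, with a median of 1.25. With 1 library left out, 13 to 20 were lower in MOLM-13 and 31 to 33 higher in NB4 cells. Of the 37 tested in both, 35 had a higher FP54 effect in NB4 than in MOLM-13 cells (limma interaction, adjusted p below 0.05). Of all genes, 14.2% differed in either direction. These 37 include the genes above with a DMSO mean under 1 RPKM, whose passing through FP54 alone favors a higher effect in NB4 cells. The count without them was not computed. Called lower in MOLM-13 and higher in NB4 cells were 14. Of all tested genes, 9.04% were called lower in MOLM-13 and 18.6% higher in NB4 cells, and the share called both ways was not computed. Among these 14, GDF15, INHBE, ADM2, STC2 and ALDH1L2 passed the NB4 filter only through FP54. In MOLM-13 cells INHBE passed it only through DMSO (2.03 RPKM, against 0.702 RPKM with FP54). STC2, a secreted glycoprotein, fell from 15.1 ± 2.93 to 3.41 ± 0.894 RPKM in MOLM-13 cells and rose from 0.740 ± 0.231 to 13.8 ± 0.271 RPKM in NB4 cells. GDF15, a stress cytokine, fell from 10.0 ± 0.783 to 2.20 ± 0.698 RPKM in MOLM-13 cells. In NB4 cells it had 0 reads in each DMSO library and 2.65 ± 0.0569 RPKM with FP54, at least 38.1-fold higher than 3 reads in a DMSO library. The hormone gene ADM2 fell by 1.59 on the log2 scale in MOLM-13 cells. INHBE, an activin subunit, was called higher in NB4 cells, at 0.0675 ± 0.0458 RPKM with DMSO, under the pseudocount, and 4.02 ± 0.525 RPKM with FP54, so no fold is given.

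Among the transcription factors of this list, ATF3, ATF5 and CEBPG, named after their values were seen, fell by 1.06, fell by 0.53 and fell by 0.71 on the log2 scale in MOLM-13 cells and rose by 1.56, 3.36 and 0.56 in NB4 cells. CEBPB had log2 fold changes of 0.19 (adjusted p = 0.455) and 1.502 (adjusted p = 3.00e-05), the latter past the cutoff. ATF4 mRNA, whose product is controlled mainly by translation, was at 323, 414 and 407 RPKM with DMSO and 366, 396 and 273 RPKM with FP54 in MOLM-13 cells, which overlapped (log2 fold change -0.15, adjusted p = 0.571). In NB4 cells ATF4 was at 198, 286 and 203 RPKM with DMSO and 294, 290 and 279 RPKM with FP54, which overlapped as well (log2 fold change 0.35, adjusted p = 0.0421). DDIT3, which encodes CHOP, an activator of PPP1R15A, was at 58.4, 79.2 and 75.2 RPKM with DMSO and 86.2, 120 and 58.5 RPKM with FP54 in MOLM-13 cells (log2 fold change 0.27, adjusted p = 0.450), and overlapped. The NB4 levels of DDIT3 were 18.1, 30.5 and 14.7 RPKM with DMSO and 69.8, 84.9 and 71.8 RPKM with FP54, and rose by 1.90 on the log2 scale (adjusted p = 4.82e-05). Thus PPP1R15A and DDIT3 did not pass in MOLM-13 cells, where 17 of the ATF4-linked genes fell.

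**Figure D4:**
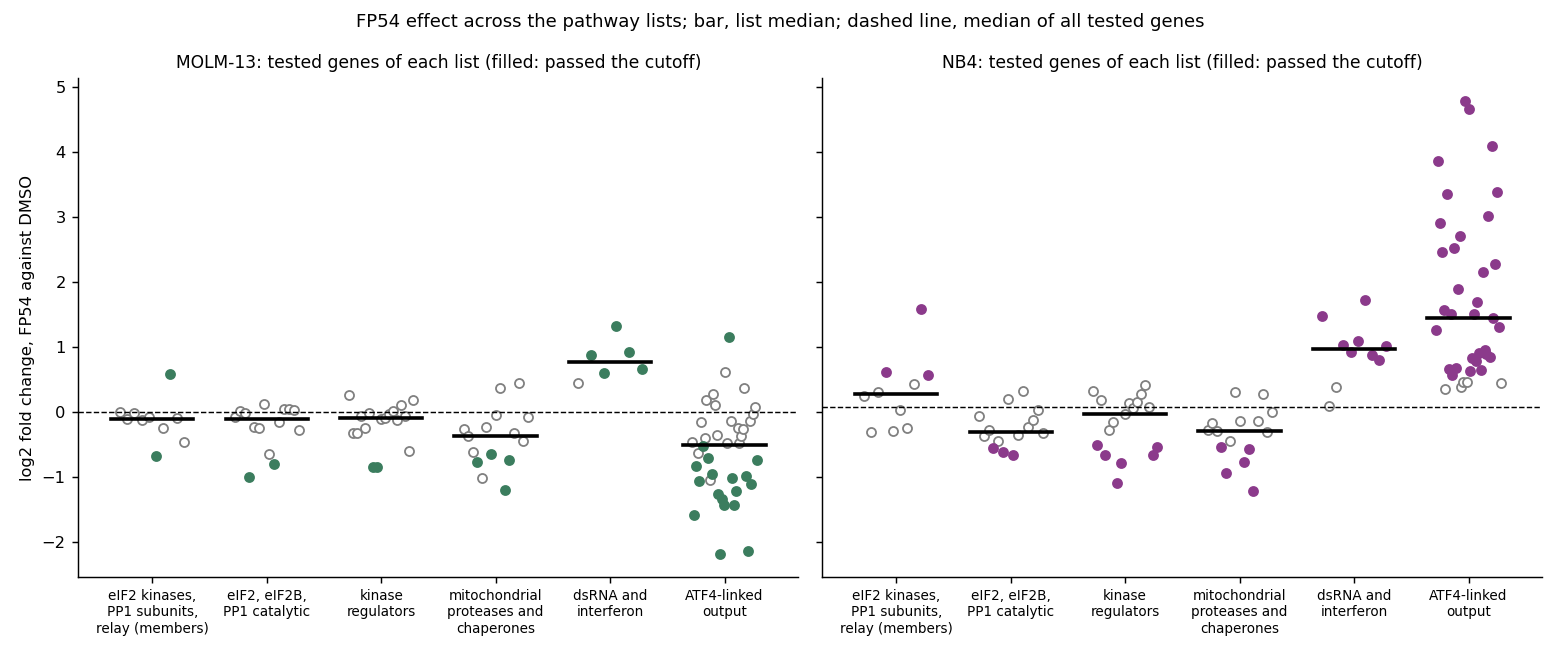
Log2 fold change of FP54 against DMSO (y axis) of each tested gene (circles, filled where it passed the cutoff) in the 10 genes and the 5 surrounding lists (x axis), in MOLM-13 (left) and NB4 (right) cells. Bars are list medians and the dashed line is the median of all tested genes. The ATF4-linked list has a median of -0.50 on the left and 1.45 on the right. On the right, 6 of its genes passed the filter only through FP54, and the median without them is 0.96. GDF15, without reads in NB4 cells with DMSO, is drawn at its fitted value.

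For each gene of the 10 that passed in a line, the 3 genes with the most similar profile over the 12 libraries were taken by Pearson correlation of log2(RPKM + 0.1), centred within each line, among 8848 genes. Libraries share their depth and treatment, so these coefficients are a description. For PPP1R15A they included GDPD3 (r = 0.976) and DDIT3 (0.970), and for PPP1R15B they were USP22 (0.982), FAM234B (0.966) and CBL (0.959). For EIF2AK3 they were BBX (0.979), NDFIP2 (0.970) and N4BP2 (0.960). BBX was at 3.81 ± 0.667 and 6.41 ± 0.540 RPKM in NB4 cells, and at 2.43 ± 0.193 and 2.12 ± 0.0852 RPKM in MOLM-13 cells. For OMA1 they were ZNF397 (0.980), MTHFSD (0.966) and ALDH6A1 (0.963), of which ALDH6A1, a mitochondrial dehydrogenase, went from 3.20 ± 0.315 to 5.13 ± 1.202 RPKM in MOLM-13 cells. For GCN1 they were NLK (0.979), PYGL (0.978) and LARP1 (0.976), and LARP1, a regulator of the translation of ribosomal protein mRNA, was at 12.8 ± 2.67 and 8.85 ± 1.14 RPKM in MOLM-13 cells and at 38.3 ± 5.66 and 38.0 ± 1.90 RPKM in NB4 cells.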

How the data were processed

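RNA-seq was analysed from 12 libraries, 3 for each treatment in each cell line, grouped by the titles in the labels. According to the paper's methods and the submitters' processing notes, the authors trimmed reads with Cutadapt 4.8, removed duplicates with Clumpify, aligned to hg38 with STAR 2.7.11b and counted protein-coding genes with featureCounts 2.0.3. The authors deposited RPKM, read counts scaled by gene length and library total, for each library. The lengths and totals they used and the strand setting are not given in the sources used here. That the NB4 table holds NB4 cells was taken from how it is named. Multiplying RPKM by annotated exon lengths (GENCODE, hg38) gave whole reads, within 0.05, for 98.5 to 99.1% of low values, from which depth was taken.

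With limma 3.58.1 (lmFit, eBayes with trend) in R 4.3.3, FP54 was compared with DMSO in each line on log2(RPKM + 0.1), without a replicate block, after genes whose mean RPKM was under 1 were left out. Genes were called by the study's cutoff, an unadjusted p under 0.01 and a minimum of 0.5 on the log2 scale, and p-values were adjusted over all tested genes by the Benjamini-Hochberg method. Differences between lines were tested as an interaction at an adjusted p below 0.05. All tests were two-sided. Figures and ratios were made in Python 3.11.15. The code was tested on simulated data.

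The 10 genes, the lists around them and the tests were chosen with earlier results of these data known. Named genes are the 10, up to 3 called genes of each list and line with the largest log2 fold change, ATF4, DDIT3 and LONP1, and the 3 most similar profiles of each of the 10 that passed. The other named genes were chosen after their values were seen. A few genes that this rule names are not reported here. Alternatives were other pseudocounts, filters, scalings and cutoffs, other eBayes settings, limma-voom on recovered reads, subtraction of the olfactory receptor level, the replicate block and leaving out each library.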

Additional observations from a re-analysis of the deposited data

Results flagged for a closer look

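The FP54 effect differed between the cell lines for 4 of the 10 genes by the limma interaction, given as NB4 minus MOLM-13 on the log2 scale. PPP1R15A differed by 1.68, from -0.09 in MOLM-13 to 1.58 in NB4 cells. PPP1R15B differed by 1.03, from -0.47 to 0.57. EIF2AK3 differed by 0.74, from -0.13 to 0.62. GCN1 differed by 0.71, from -0.68 to 0.03. The treatments differ in depth and in olfactory receptor level in NB4 libraries, and the part of these in the results was not tested beyond the subtraction of that level, with which 4 genes still differed. At the threshold used, 14.2% of all genes tested in both lines differed.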

How the results depend on the processing

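Of the single values recomputed under the alternatives, 509 kept their direction and side of the cutoff, 36 lost the cutoff, 2 gained it and 14 turned direction. In MOLM-13 cells, with no filter on low values, 0 of the 10 genes were lower and 0 higher and 12 of the surrounding genes were lower, against 25. A filter at a mean RPKM of 5 left 0 of the 10 and 3 of the surrounding genes higher, against 6. In NB4 cells that filter left 26 surrounding genes higher, against 40. Median-ratio scaling gave 1 lower and 1 higher of the 10 in NB4 cells and quantile normalization 1 higher. An adjusted p below 0.05 with no minimum fold gave 1 lower and 5 higher of the 10 and 25 lower surrounding genes, against 14. Leaving out 1 library gave 0 to 2 lower and 0 to 1 higher of the 10 in MOLM-13 cells, with 15 to 31 lower and 3 to 8 higher surrounding genes, and 2 to 4 of the 10 with a different effect in the 2 lines.

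Values that turned direction were all small and not called. Under median-ratio scaling DELE1 in MOLM-13 cells was -0.0196 and GCN1 in NB4 cells -0.16, and with limma-voom the interaction of IMPACT was 0.0099. With 1 library left out, DELE1 ranged from -0.0808 to 0.0761, EIF2AK2 from -0.0917 to 0.0848 and PPP1R15A from -0.35 to 0.18 in MOLM-13 cells, GCN1 from -0.0701 to 0.0917 in NB4 cells, and the interaction of IMPACT from -0.13 to 0.17. The cause was not tested.

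Replicate numbers did not pair the samples: correlations of same-numbered deviations were -0.26, -0.13 and -0.06 in MOLM-13 and -0.14, 0.07 and 0.12 in NB4 cells. In MOLM-13 cells each sample correlated best with another number. DMSO replicate 1 went with FP54 replicate 3 (0.59), DMSO replicate 2 with FP54 replicate 1 (0.49) and DMSO replicate 3 with FP54 replicate 2 (0.47). The replicate block joined the same numbers, so it did not test these pairs, and their source was not tested. With the replicate block, 2 of the 10 differed between lines (PPP1R15A and PPP1R15B), and the counts of calls in each line were within 1.5 times those without it. FP54 replicate 2 in MOLM-13 cells was the shallowest library, with 135 reads on OMA1, 167 on IMPACT, 180 on EIF2AK4 and 207 on PPP1R15B.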

Other observations

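In MOLM-13 cells the spread of PPP1R15A between libraries exceeded the difference between treatments, and the genes that followed it over these 6 libraries were looked up after its values were seen. Pearson correlations of log2(RPKM + 0.1) were 0.997 for IER5, an immediate early gene, 0.988 for the helicase DHX16 and 0.985 for the ubiquitin ligase RNF40. IER5 was at 57.6, 86.6 and 74.8 RPKM with DMSO and 68.4, 85.01 and 54.6 RPKM with FP54, so that DMSO replicate 2 and FP54 replicate 2 were high and DMSO replicate 1 and FP54 replicate 3 low for both genes. In NB4 cells IER5 was at 21.9, 27.9 and 22.02 RPKM with DMSO and 28.6, 28.5 and 26.2 RPKM with FP54 (limma log2 fold change 0.22, adjusted p = 0.103). RNF40 fell from 52.2 ± 3.62 to 35.0 ± 0.671 RPKM (SD, n = 3) in NB4 cells, where PPP1R15A rose. These coefficients are the highest among 8848 genes over 6 libraries that share depth and treatment, and are given as a description.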
